A study of Mus musculus with 24 samples.

Results

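The 8 genes described here are Nr3c1, Fkbp5, Tsc22d3, Sgk1, Tdo2, Tat, Mt1 and Mt2, that is, the glucocorticoid receptor, 5 of its textbook target genes and both liver metallothioneins. They were taken as every probe set that the platform annotation gives to one of these symbols alone, which found 21 of the 45101 probe sets of the array and 8 of the 18193 genes. RNA came from MMH-D3, an immortalised mouse hepatocyte line, differentiated for 14 days in medium with 2% DMSO and then given a serum shock, a pulse of serum that sets the circadian clocks of cultured cells to a common phase. One array was made every 2 h between 12 and 58 h after the shock, 24 arrays in all, with no replicate at any time. All arrays share the line, the DMSO and the serum shock, and there is no unshocked control. The labels name no added glucocorticoid or metal, and whether the medium held any is not given in the sources used here.

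Glucocorticoids enter the cell and bind the receptor, which leaves its chaperones, moves to the nucleus and binds glucocorticoid response elements, inverted pairs of a short half-site. In liver the receptor drives genes for amino acid breakdown and glucose output, and glucocorticoids can set the phase of peripheral clocks. Metallothioneins are small cysteine-rich proteins that bind zinc and copper, and their genes answer to metals through metal response elements as well as to glucocorticoids.

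Start windows of Mt1, Mt2 and Sgk1 are shown because the metallothioneins parted from each other in these data, and because 1 of the 6 annotated Sgk1 start windows carries a complete inverted pair. Each is 300 bases, 250 before and 50 after the annotated start, from RefSeq on GRCm38.p6. Capitals mark the metal response element core, TGCACNC or TGCGCNC on either strand, in Mt1 and Mt2. In Sgk1 they mark AGAACA and TGTTCT spaced by 3 bases. The first window is chr8:94178839-94179138, the second chr8:94172368-94172667 and the third chr10:21993640-21993939, all on the plus strand.
Mt1: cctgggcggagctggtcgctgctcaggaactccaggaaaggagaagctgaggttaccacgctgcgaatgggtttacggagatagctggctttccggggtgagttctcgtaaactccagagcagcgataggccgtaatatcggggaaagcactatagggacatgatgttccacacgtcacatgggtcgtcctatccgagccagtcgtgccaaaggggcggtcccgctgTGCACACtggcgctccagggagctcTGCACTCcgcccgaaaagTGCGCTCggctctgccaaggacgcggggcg
Mt2: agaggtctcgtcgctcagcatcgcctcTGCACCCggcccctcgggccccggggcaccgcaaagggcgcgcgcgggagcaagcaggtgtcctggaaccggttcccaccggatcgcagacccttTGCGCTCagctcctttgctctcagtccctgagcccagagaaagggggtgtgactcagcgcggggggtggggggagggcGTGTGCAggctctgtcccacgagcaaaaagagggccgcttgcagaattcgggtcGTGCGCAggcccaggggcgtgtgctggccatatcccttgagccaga
Sgk1: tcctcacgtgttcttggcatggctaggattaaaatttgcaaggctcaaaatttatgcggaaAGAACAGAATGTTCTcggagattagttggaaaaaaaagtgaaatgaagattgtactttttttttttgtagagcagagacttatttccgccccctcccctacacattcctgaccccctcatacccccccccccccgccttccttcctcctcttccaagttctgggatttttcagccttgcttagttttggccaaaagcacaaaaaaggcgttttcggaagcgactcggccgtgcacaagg
The Mt2 start lies 6471 bases before the Mt1 start. The Mt1 window held 3 metal response element cores and the Mt2 window 4, where 25.7% of 32851 mouse start windows held at least 1 and 0.517% held 4 or more. The share with 3 or more is not given. The Mt1 cores began at bases -23, 3 and 21 and the Mt2 cores at -223, -128, -50 and 5, so both windows held cores after the annotated start. The inverted pair of the Sgk1 window ran from base -189 to base -175, and 3 of the 32851 windows held such a pair. The same window held a further TGTTCT, which shared 2 bases with an E-box, CACGTG, the site bound by the core clock activators. A half-site, TGTTCT on either strand, was found in 19.0% of all windows and an E-box in 7.15%. Of the other 5 Sgk1 windows 2 held 1 half-site each and 3 held none. The Tdo2 and Tat windows held none of these motifs, the Fkbp5 window held 1 E-box, and 1 of the 3 Tsc22d3 windows held 1 half-site. These are matches of letters, and binding was not measured.

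Of the 21 probe sets, 14 reached a log2 value of 5 on at least 6 arrays and were tested, and these cover 7 genes. The other 7 lay below 5 on all 24 arrays, and 3 of them (Tat 1451557_at, Tsc22d3 1444365_at and Mt1 1451612_at) stayed within 0.01 of the table's lowest value, 2.17. The other 4 were Tdo2 1449337_at (2.43 to 3.47) and 1455770_at (2.17 to 2.73), Fkbp5 1447736_at (2.17 to 2.47) and Nr3c1 1431378_at (2.32 to 3.64). Tat, tyrosine aminotransferase and a classical glucocorticoid-induced liver enzyme, was thus the one gene with no measured probe set, so its level has only an upper bound. Tdo2 was read by 1419093_at alone, which was below 5 on 3 arrays, with 4.81, 4.67 and 4.74 at 18, 20 and 22 h. Each gene is represented below by its probe set of highest mean. Levels of different probe sets are not compared, since their probes bind unequally.

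**Figure D1:**
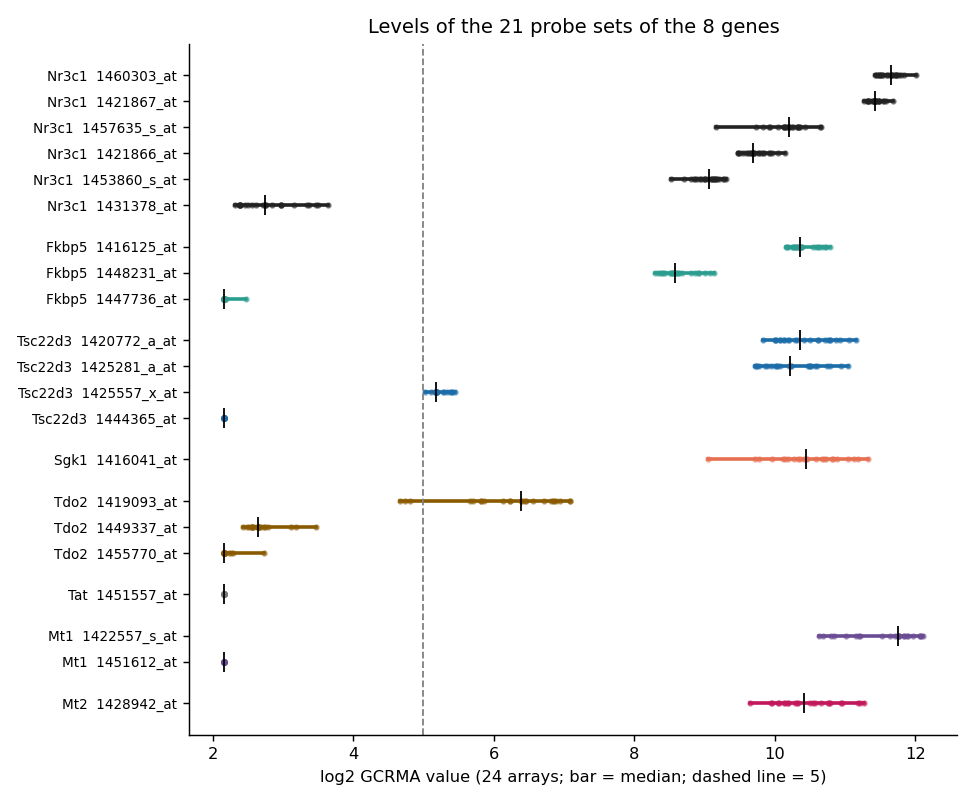
Log2 value of each of the 21 probe sets on the 24 arrays (points), with the range (line) and the median (bar), grouped by gene. The dashed line is at 5; 7 probe sets lie wholly left of it, among them the single Tat probe set, and Tdo2 1419093_at crosses it.

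The labelled cell type was set against its markers first. Alb, Ttr, Apoa1 and Hnf4a were measured, while Cps1 and Cyp2e1, both of mature liver, lay at the lowest value. The fitted linear change over the sampled 46 h was negative for all 4, the largest for Apoa1 (-2.54 ± 0.42 SE, limma adjusted p = 5.34e-05). It passed an adjusted p of 0.05 for 3 of these 4, where 16.4% of all measured genes fell. For Hnf4a it was -0.24 and did not pass (adjusted p = 0.0557). Bile duct markers Krt7, Krt19, Epcam and Sox9 were all measured. Of these 4 only 1 passed for a fall, Epcam with -1.29 ± 0.25 (adjusted p = 0.000267). Of the other markers, 0 of 5 fibroblast and 0 of 4 endothelial ones were measured. Of 4 macrophage markers Csf1r and Cd68 were measured, while Ptprc and Adgre1 were near the lowest value. The part of these markers in the results below was not tested, and in such bulk RNA fewer cells of a type and less RNA per cell cannot be told apart. The median over all measured probe sets lay between 8.96, at 40 h, and 9.14, at 46 h.

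Each gene was examined in 1 limma model of the 24 arrays for a 24 h cycle and for drift in a straight line. A comparison of the second day (36 to 58 h) with the first day (12 to 34 h) tested drift without assuming a line. The days hold 12 arrays each, at the same phases of a 24 h cycle. With another period, as free-period fits with linear drift gave for Tsc22d3, Tdo2 and Sgk1, part of a cycle can enter the difference. Of the 7 measured genes, Tsc22d3 and Tdo2 passed the 24 h test at an adjusted p of 0.05, which 2.77% of 9825 measured genes did. Tsc22d3 and Tdo2 also rose over the 46 h, where 26.3% of all genes rose, and Mt1, Sgk1 and Nr3c1 fell, where 16.4% of all genes fell. The same 5 genes differed between the days, 2 higher on the second (25.7% of all genes) and 3 lower (15.6%). The labels do not state whether each time was a culture of its own. The p-values therefore measure how far single arrays lay from the fitted curve, a spread that can be technical.

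**Figure D2:**
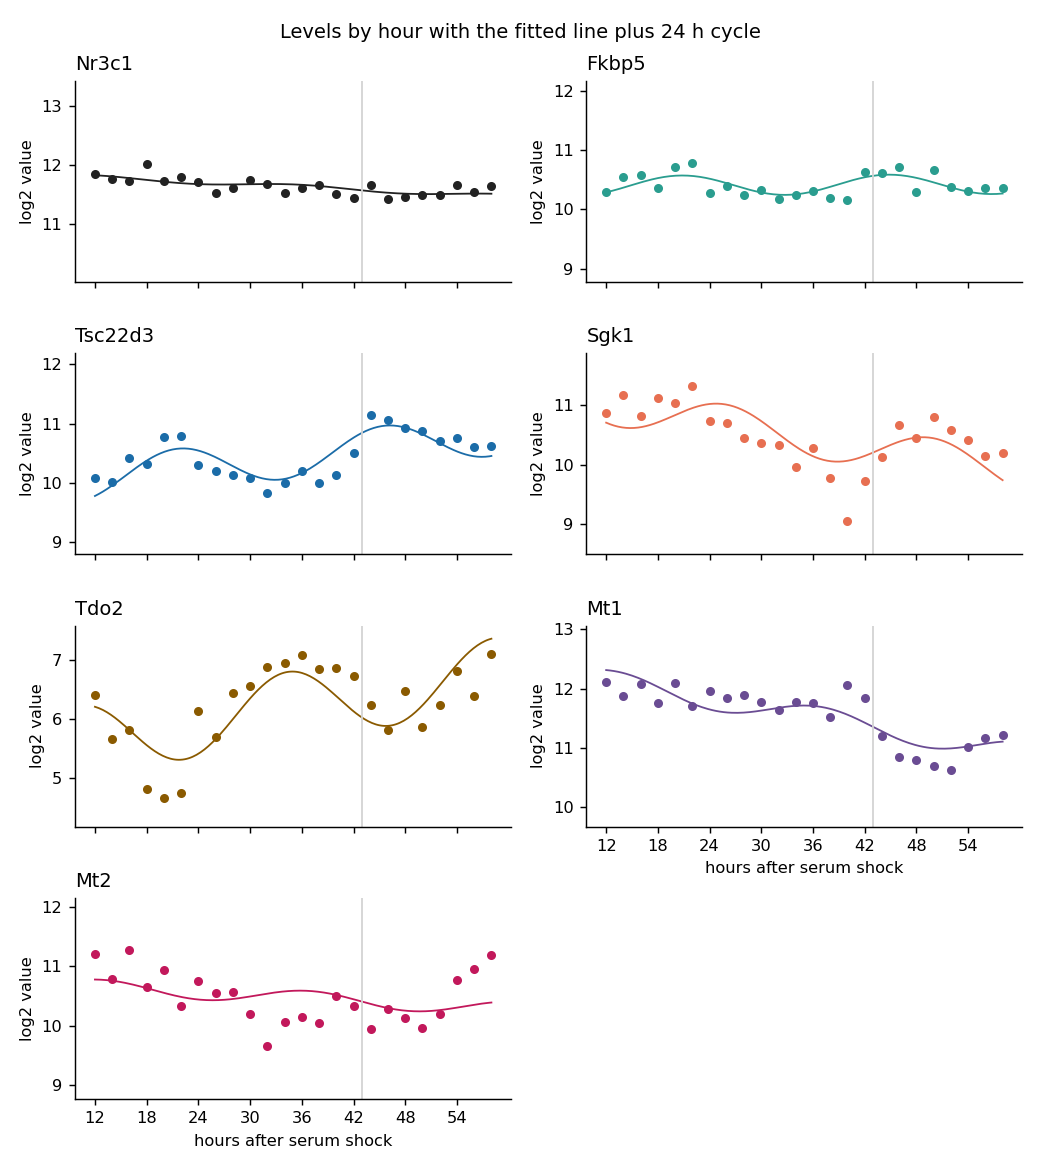
Log2 value by hours after serum shock for the representative probe set of each measured gene (points, 1 array each), with the fitted line plus 24 h cycle (curve). All panels span the same log2 range, and the grey line lies between 42 and 44 h. The fitted curve misses the drop of Mt1 that begins there and the low Sgk1 value at 40 h.

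Nr3c1, the receptor itself, was lower on the second day but moved little. On the second day 1460303_at had a lowest, median and highest log2 value of 11.42, 11.52 and 11.66, against 11.52, 11.72 and 12.01 on the first day. The ranges overlapped, and the highest array was that of 18 h. The mean was 11.55 ± 0.0938 on the second day and 11.72 ± 0.134 on the first (SD, n = 12 each). The difference was -0.17 ± 0.05 (SE, limma adjusted p = 0.00411) and the fitted change over 46 h was -0.31 ± 0.08 (adjusted p = 0.00409). No 24 h cycle passed the test, with an amplitude (from the middle of the fitted cosine to its top) of 0.04 ± 0.03 log2 (adjusted p = 0.76).

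The other 4 measured Nr3c1 probe sets did not all follow. Probe set 1457635_s_at fell by 0.58 ± 0.19 over 46 h (adjusted p = 0.0164). This fall was not steady: in blocks of 8 h the means were 10.39, 10.35, 10.22, 9.81, 9.99 and 10.22 (n = 4 each), in time order. The lowest array was that of 42 h, with 9.17. The fitted changes of the 3 that did not pass were -0.05 for 1421867_at, -0.01 for 1421866_at and -0.24 for 1453860_s_at. Correlations of the 4 with 1460303_at over the 24 arrays ranged from -0.45 (1421866_at) to 0.79 (1457635_s_at), so the fall of Nr3c1 holds for 2 of its 5 measured probe sets. The suffix _s_at marks probes that can match several transcripts.

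Fkbp5 codes for a co-chaperone that lowers the receptor's affinity for hormone and is itself induced by it, a feedback loop. Its 24 h amplitude was 0.17 ± 0.05 log2, with a first peak at 20.8 ± 1.1 h, and did not pass the test (limma adjusted p = 0.0903). It passed with a quadratic drift (0.18, adjusted p = 0.0234), with a spline (0.18, adjusted p = 0.0434) and without 12 to 18 h (0.19, adjusted p = 0.0357). On the second day its log2 values were 10.16, 10.36 and 10.71 (lowest, median, highest), against 10.17, 10.35 and 10.78 on the first day. The days covered nearly the same range, and the highest arrays were those of 46 h and 22 h. The difference between the days was 0.00 ± 0.06 (adjusted p = 0.981). The second measured probe set, 1448231_at, correlated with the first at r = 0.85 over the 24 arrays and had an amplitude of 0.18 ± 0.06 (adjusted p = 0.217).

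Tsc22d3, or GILZ, is a leucine zipper protein that carries part of the anti-inflammatory action of glucocorticoids. It both cycled and rose. The amplitude was 0.36 ± 0.06 log2, a 1.64-fold difference between fitted peak and trough, with a first peak at 21.6 ± 0.7 h (limma adjusted p = 0.00853). For orientation, the clock genes Nr1d1, Dbp and Per2 had first peaks at 15.7, 17.8 and 22.3 h in the same fit.

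On the second day Tsc22d3 had a lowest, median and highest log2 value of 9.997, 10.66 and 11.15, against 9.83, 10.16 and 10.79 on the first day. The highest array was that of 44 h on the second day and that of 22 h on the first. The second day was higher by 0.39 ± 0.09 (adjusted p = 0.00204), with means of 10.63 ± 0.367 on the second day and 10.24 ± 0.299 on the first (SD, n = 12 each), and the ranges overlapped. Most of the rise lay at 1 place: the values at 38, 40, 42, 44 and 46 h were 9.997, 10.13, 10.51, 11.15 and 11.06. Without the 8 arrays from 44 to 58 h the fitted change was -0.09, so the rise rests on them.

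This course was shared by 2 of the 3 measured Tsc22d3 probe sets. Probe set 1425281_a_at had an amplitude of 0.36 ± 0.06 (adjusted p = 0.00596) and rose by 0.94 ± 0.15 over 46 h (adjusted p = 3.23e-05). It correlated with 1420772_a_at at r = 0.96. Probe set 1425557_x_at lay between 5.02 and 5.45, near the detection filter, with an amplitude of 0.07 ± 0.04 (adjusted p = 0.498). The 24 h call on 1420772_a_at was lost when no drift was fitted (amplitude 0.33, adjusted p = 0.0625). With a free period and the linear drift its best cosine had 27.95 h, and the 95% interval of 25.8 to 30.4 h did not hold 24 h. With a quadratic drift the period was 25.05 h and the interval of 22.6 to 30.2 h held it.

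Sgk1 codes for a kinase that raises sodium transport and is induced by glucocorticoids, serum and osmotic stress. It fell by 1.09 ± 0.28 log2 over the 46 h (limma adjusted p = 0.00346). On the second day its log2 values were 9.04, 10.23 and 10.81 (lowest, median, highest), against 9.96, 10.78 and 11.32 on the first day. The fall was not steady. In blocks of 8 h the means were 11.003, 10.95, 10.27, 9.70, 10.51 and 10.34 (n = 4 each), in time order, so the lowest block was 36 to 42 h.

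The second day of Sgk1 differed from the first by -0.56 ± 0.16 (adjusted p = 0.009). The single lowest array, 40 h with 9.04, was also the array of lowest overall median. Without the arrays of 12 to 18 h the fitted change was -0.49 (adjusted p = 0.188), and with a step at 44 h in place of the line it was -0.19 (adjusted p = 0.514). The amplitude was 0.34 ± 0.11 with a first peak at 25.8 ± 1.3 h, which did not pass (adjusted p = 0.184). It passed with a quadratic drift (0.41, adjusted p = 0.00765), with a spline (0.39, adjusted p = 0.0163) and without 12 to 18 h (0.50, adjusted p = 0.0161). The free period of Sgk1 with linear drift was 32.15 h. Its 95% interval ran from 28.7 h to the edge of the range tried, without 24 h. With quadratic drift the period was 26.65 h, and the interval, from 22.45 h to that edge, held 24 h.

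Tdo2, tryptophan 2,3-dioxygenase, is the hepatic enzyme that opens the kynurenine pathway and is induced by glucocorticoids. It had the largest amplitude of the 7 genes, 0.60 ± 0.13 log2 or 2.28-fold between peak and trough (limma adjusted p = 0.033), above that of 99.7% of measured genes. Its first peak, at 34.3 ± 0.9 h, lay where Tsc22d3 was low. On the second day the log2 values were 5.82, 6.59 and 7.09 (lowest, median, highest), against 4.67, 5.97 and 6.95 on the first day. The lowest arrays were those of 46 h and 20 h and the highest those of 58 h and 34 h.

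Tdo2 was higher on the second day by 0.64 ± 0.18 (adjusted p = 0.00633) and rose by 1.10 ± 0.33 over 46 h (adjusted p = 0.00987). The dip of the first day was deeper, with 3 arrays below the level of 5 at which a value counts as measured. The 24 h call was lost on leaving out any one of 8 arrays (12, 20, 22, 26, 32, 34, 36 or 46 h), with adjusted p between 0.0516 and 0.0621. With no filter on low values, which adds probe sets to the adjustment, the adjusted p was 0.100. The free period with linear drift was 28.65 h (95% interval 26.5 to 31.25 h, without 24 h), and with quadratic drift the interval ran from 24.75 h to the edge of the range tried. The rise lost its call without 12 to 18 h (0.76, adjusted p = 0.115) and as a step at 44 h (0.30, adjusted p = 0.333).

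**Figure D3:**
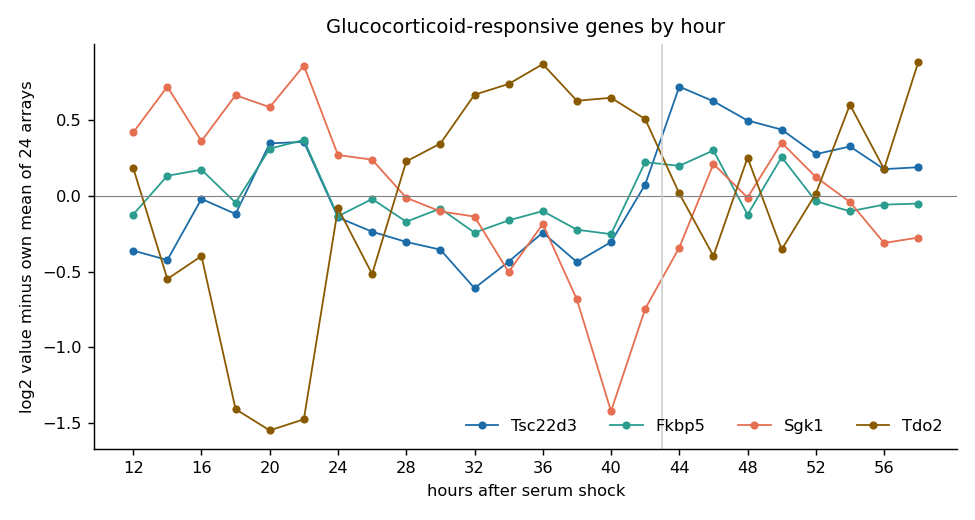
Log2 value minus the gene's own mean over 24 arrays, by hours after serum shock, for Tsc22d3, Fkbp5, Sgk1 and Tdo2 (1 point per array). Tsc22d3, Fkbp5 and Sgk1 are all highest at 22 h within the first day, where Tdo2 is near its lowest.

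Set side by side, the 4 measured targets did not share 1 course. Tsc22d3, Fkbp5 and Sgk1 had their highest second-day arrays at 44, 46 and 50 h, and all had their highest first-day array at 22 h. Over the 24 arrays Tsc22d3 and Fkbp5 correlated at r = 0.65 (Spearman's rho 0.66), and Fkbp5 and Sgk1 at 0.50 (rho 0.49), but Tsc22d3 and Sgk1 at 0.19 (rho 0.21). Tdo2 ran opposite to Fkbp5 (r = -0.66, rho -0.69) and Sgk1 (r = -0.77, rho -0.82), and less so to Tsc22d3 (r = -0.32, rho -0.39). These are descriptions over 1 time course, in which neighbouring arrays are not independent, and no p is given.

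Their drifts differed as well. The fitted change of Tsc22d3 exceeded that of Fkbp5 by 0.72 ± 0.12 log2 and that of Sgk1 by 1.83 ± 0.21, and that of Tdo2 exceeded that of Sgk1 by 2.19 ± 0.60, whereas Tsc22d3 minus Tdo2 was -0.35 ± 0.46 (SE of a fit to the difference; 21 pairs of genes were computed). These sizes depend on the straight line. With a step at 44 h in its place, Tdo2 minus Sgk1 was 0.49 ± 0.49 and Tsc22d3 minus Sgk1 was 0.80 ± 0.24. Between the days these 2 differences were 1.19 ± 0.34 and 0.94 ± 0.14. Fkbp5 had a smaller absolute linear change than all but 6.24% of measured genes, whereas Sgk1 and Tdo2 exceeded 94.6% of them.

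The metallothioneins were read by 1 measured probe set each, Mt1 by 1422557_s_at and Mt2 by 1428942_at. The first is of the _s_at kind, whose probes can match several transcripts. Mt1 was lower from 44 h on. At 42, 44, 46, 48, 50 and 52 h it had 11.84, 11.20, 10.85, 10.79, 10.69 and 10.63. The fall thus began between 42 and 44 h and ran on to 52 h. At 54, 56 and 58 h the values were 11.01, 11.16 and 11.21, a partial return. From 44 to 58 h its 8 log2 values had a lowest, median and highest of 10.63, 10.93 and 11.21, against 11.53, 11.84 and 12.10 on the 16 arrays from 12 to 42 h. The groups did not overlap. This split was chosen after seeing the data, and the share of all genes without overlap there was not counted. It was not particular to Mt1. Of the list genes below, Atox1 had 10.82 to 11.06 late and 11.28 to 11.75 early. Got1, which moved the other way, had 11.72 to 12.22 late and 11.02 to 11.43 early. Both were picked here after their values were seen. The means were 10.94 ± 0.235 (SD, n = 8) late and 11.85 ± 0.169 (SD, n = 16) early.

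A step at 44 h, a model chosen after seeing the data, gave -0.85 ± 0.09 for Mt1 (limma adjusted p = 2.75e-08) and 0.61 ± 0.07 for Tsc22d3 (adjusted p = 5.92e-08). Whether the medium was renewed during sampling is not given in the sources used here. In that model 18.3% of all genes were lower and 31.4% higher, and none of the other 5 member genes passed. The straight line gave Mt1 a change of -1.16 ± 0.19 over 46 h (adjusted p = 3.36e-05), and the second day was lower, with a difference of -0.65 ± 0.10 (adjusted p = 3.89e-05). Without the arrays from 44 to 58 h the change was -0.33 (adjusted p = 0.204).

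Mt2, its neighbour on chromosome 8, did not share the step. From 44 to 58 h its log2 values had a lowest, median and highest of 9.95, 10.24 and 11.19, against 9.65, 10.53 and 11.28 from 12 to 42 h, so the ranges overlapped. The step was 0.03 ± 0.20 (adjusted p = 0.909). In blocks of 8 h Mt2 averaged 10.98 ± 0.306, 10.64 ± 0.26, 10.12 ± 0.383, 10.25 ± 0.203, 10.08 ± 0.16 and 10.78 ± 0.428 (SD, n = 4 each), in time order.

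Mt2 thus lay between 9.65 and 10.51 from 30 to 52 h, and at 54, 56 and 58 h it had 10.77, 10.96 and 11.19. This late rise was not particular to Mt2, since Mt1 rose from 10.63 at 52 h to 11.21 at 58 h. The fitted change of Mt2, -0.36 ± 0.31, did not pass (adjusted p = 0.359). Without 44 to 58 h the fitted change, a slope expressed over the same 46 h, was -1.45 and passed (adjusted p = 0.00236). The step of Mt1 minus that of Mt2 was -0.88 ± 0.17 (SE), and the genes correlated at r = 0.36 (rho 0.51) over the 24 arrays. Neither passed the 24 h test, with amplitudes of 0.19 ± 0.07 for Mt1 (adjusted p = 0.268) and 0.12 ± 0.12 for Mt2 (adjusted p = 0.782). Mt1 passed with a spline (0.31, adjusted p = 0.0198) and without 12 to 18 h (0.31, adjusted p = 0.016).

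**Figure D4:**
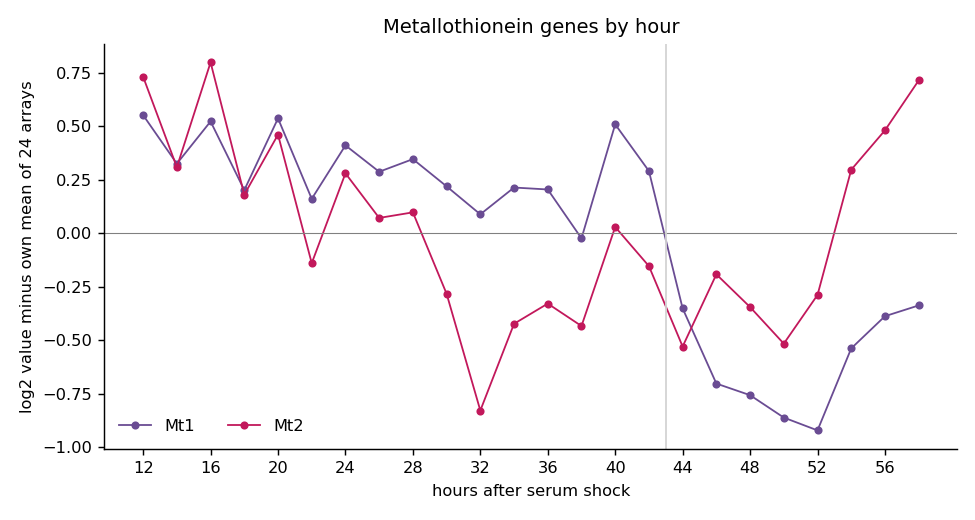
Log2 value minus the gene's own mean over 24 arrays, by hours after serum shock, for Mt1 and Mt2 (1 point per array; grey line between 42 and 44 h). Mt1 drops from 44 h on, is lowest at 52 h and then rises in part. Mt2 is already low from 32 h and is high again at 58 h.

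**Figure D5:**
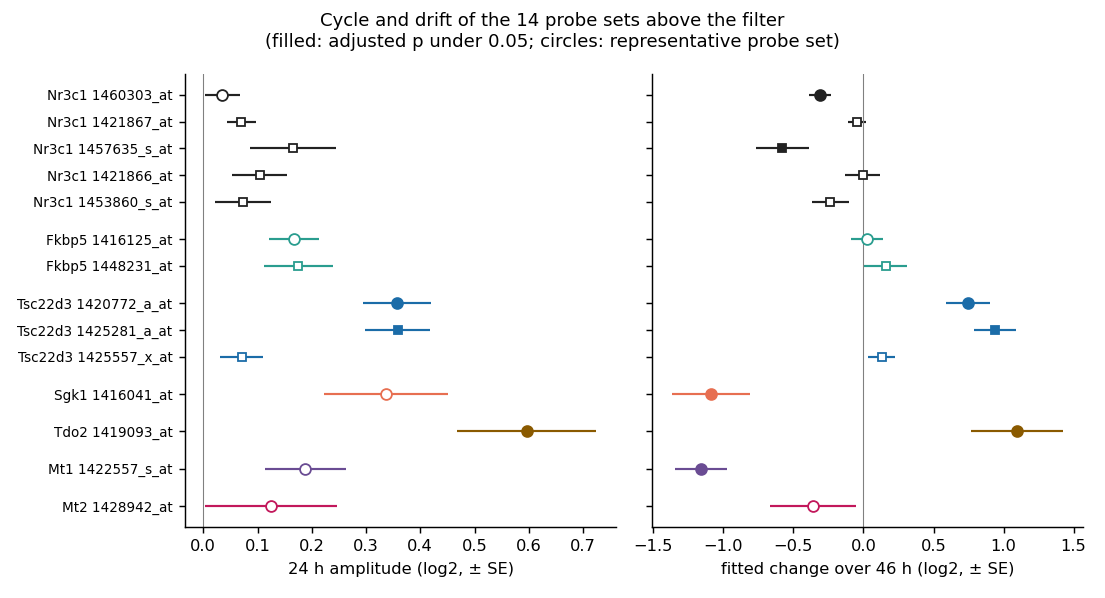
Fitted 24 h amplitude (left) and fitted change over 46 h (right), in log2 with SE, of the 14 measured probe sets. Filled symbols passed an adjusted p of 0.05 and circles are representative probe sets; probe sets of Tsc22d3 and of Nr3c1 fall on both sides of the threshold.

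Other genes of these pathways came from lists chosen with earlier results of these data known. Of 37 glucocorticoid targets listed beside the members, 25 were measured: 13 rose, 4 fell and 2 cycled, where 26.3%, 16.4% and 2.77% of all measured genes did. The median change was 0.44 log2 and the median amplitude 0.0996, against 0.07 and 0.0816 over all genes. Per1, a clock gene with glucocorticoid response elements, had an amplitude of 0.41 ± 0.07 and a first peak at 20.8 h (adjusted p = 0.00717), close to the hours of Fkbp5 and Tsc22d3. Agt, angiotensinogen, had an amplitude of 0.26 ± 0.05 and a first peak at 12.8 h (adjusted p = 0.0115). Ddit4, an inhibitor of mTOR signalling, rose by 1.41 ± 0.07 (adjusted p = 3.14e-12), and Gadd45g, a stress-response gene, by 1.17 ± 0.16 (adjusted p = 6.62e-06). Pck1, G6pc and Igfbp1, hormone-regulated genes of the liver, were below 5 on all arrays, as Tat was, and are named after their values were seen.

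Of 15 measured receptor chaperones and coregulators 4 rose, 1 fell and 0 passed the 24 h test of limma, a share of risers like the 26.3% of all genes. The coactivators Ncoa1 and Ncoa3 rose by 0.65 ± 0.18 and 0.58 ± 0.15. Hsp90aa1, the chaperone that holds the receptor ready for hormone, had an amplitude of 0.08 ± 0.02 that did not pass (adjusted p = 0.105), nor did that of Hspa8, its partner chaperone (0.19 ± 0.07, adjusted p = 0.209). Of 6 measured corticosteroid enzymes and transporters 3 fell, where 16.4% of all genes fell. Hsd11b1, which regenerates active glucocorticoid inside hepatocytes, fell by 1.18 ± 0.26 (adjusted p = 0.000965), and Abcb1a, an efflux pump, by 1.69 ± 0.30 (adjusted p = 9.48e-05). Abcb1b and Cyp3a13 had 24 h amplitudes of 0.34 ± 0.12 and 0.14 ± 0.10, which did not pass (adjusted p = 0.215 and 0.617).

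Of 20 measured genes of metal handling 4 rose and 4 fell, near the 26.3% and 16.4% of all genes. Atox1, a copper chaperone, fell by 0.71 ± 0.10 (adjusted p = 6.12e-06) and Hmox1, haem oxygenase, rose by 1.30 ± 0.17 (adjusted p = 2.18e-06). Gclc, of glutathione synthesis, had an amplitude of 0.08 ± 0.03 that did not pass (adjusted p = 0.192). Mtf1, the factor that binds metal response elements, and Slc30a1, a zinc exporter and one of its targets, rose by 0.48 ± 0.15 and 0.70 ± 0.22 (adjusted p = 0.0148 and 0.015), and are named after their values were seen. Of 7 measured genes of tryptophan and tyrosine breakdown beside Tdo2, Got1, a transaminase, rose by 1.25 ± 0.20 and Qdpr, which renews a hydroxylase cofactor, fell by 0.64 ± 0.08, and were the only ones that passed for change. Pcbd1, which recycles the same cofactor, had an amplitude of 0.14 ± 0.04 that did not pass (adjusted p = 0.0765).

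The genes whose profiles were most like each member's, by Pearson's r over the 24 arrays among measured genes, were picked for that likeness and get no test. For Tsc22d3 they were Lonrf1 (0.90), Aars (0.89) and Jdp2 (0.88). For Mt1 they were Commd4 (0.97), Sdf2l1 (0.96) and Ndufa9 (0.96), whereas the best match of Mt2 was Atg7 at 0.73. For Tdo2 they were Dmkn (0.83), Ppp1r3c (0.82) and Adam17 (0.82), for Sgk1 Mthfd1 (0.86), Acot4 (0.86) and Dnajb14 (0.83), for Fkbp5 Desi1 (0.77), Pag1 (0.76) and Htatsf1 (0.72), and for Nr3c1 Akr1c12 (0.86), Asb13 (0.84) and Nsmaf (0.83). Mt1 thus had closer matches elsewhere on the array than Mt2.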

How the data were processed

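The authors deposited log2 values, 1 per probe set and array; the submitters' processing notes name GCRMA; its version and settings are not given in the sources used here, and the log2 scale was read from the values. GCRMA leaves dim probe sets at a shared lowest value: 44.9% of values lay within 0.01 of 2.17. Symbols came from GEO's platform annotation, which gives 1 symbol for 34958 probe sets. Probe sets with at least 5 on at least 6 arrays were kept (18526). Limma 3.58.1 in R 4.3.3 fitted an intercept, a linear term and the cosine and sine of 24 h to the 24 arrays, or a second-day indicator in place of the linear term. Benjamini-Hochberg adjustment covered all 18526, and 0.05 was the threshold. Counts over genes use the probe set of highest mean. Free periods between 16 and 34 h came from least squares, and the 95% interval from an F ratio. The tests of cycle and linear change were checked on simulated data. The number of arrays limits the precision. The members and lists were chosen with earlier results of these data known. Named genes were all members and, per list, the 2 of smallest p for cycle and for change, and the 3 most correlated with each member; those outside this rule are said to be so. Alternatives covered the filter, normalization, variance prior, form of the drift, probe set, and arrays left out singly or in blocks.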

Additional observations from a re-analysis of the deposited data

How the results depend on the processing

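The number of member genes that cycled, 2 as reported, was 1 with no filter, with 5 required on all arrays or with no drift term, 4 with quadratic drift (Fkbp5 and Sgk1 added), and 5 with a spline of 3 df or without 12 to 18 h (Mt1 too). The number that changed, 5, was 3 without 12 to 18 h and 2 with a step at 44 h, and the number differing between days, 5, was 3 without 44 to 58 h and 3 without 12 to 18 h. Among the other list genes, of which the lists above held 25, 15, 6, 20 and 7 measured, 35 changed and 2 cycled. Over all measured genes 26.3% rose, 16.4% fell and 2.77% cycled in the main fit. The share of all genes that cycled under each alternative is not given, so the higher counts of cycling members there cannot be set against it. The 35 became 21 without 44 to 58 h. The 2 became 13 without 12 to 18 h, 9 with the spline, 6 with quadratic drift and 4 with no drift or the step. Leaving out 1 array at a time gave 1 to 2 cycling members, 5 to 5 changed, 5 to 5 differing between days, 2 to 3 other genes cycling and 32 to 41 changed. Signs turned for Fkbp5, whose change was -0.033 after quantile normalization, -0.040 with each array centred, -0.27 without 44 to 58 h and -0.059 with no harmonic, and whose day difference was -0.032, -0.037 and -0.15 under the first 3; with 1 array left out these ran from -0.018 to 0.081 and from -0.023 to 0.032. Signs also turned for Tsc22d3 without 44 to 58 h (change -0.086, day difference -0.046), for Mt2 without 12 to 18 h (0.14) and with the step (0.033), and for the Nr3c1 day difference on 1421866_at (0.029). The cause was not tested. The free period was 27.95 h for Tsc22d3, 28.65 h for Tdo2 and 32.15 h for Sgk1 with linear drift, and 25.05, 34.0 (the edge tried) and 26.65 h with quadratic drift. Of 228 single-gene values under alternatives with no single array left out, 185 kept direction and call. The days were also compared paired, each array with that 24 h later (12 pairs, added after seeing the data): 5 members again differed, with adjusted p up to 0.028.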
